A study of Homo sapiens with 4 samples.

Results

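The strongest sites that 2 eCLIP libraries of the RNA-binding protein ZFR had in common, and that neither input library listed, numbered 638. They were chosen among the 458932 distinct peak intervals of eCLIP library 1. A site was an interval with at least 10 reads that overlapped, by 1 base or more and strand for strand, an eCLIP library 2 peak of at least 10 reads and no peak of either size-matched input. Each interval counted once. The sites were thus chosen by their reads and their overlaps, which are given below as a description, with no test. Over the 4 libraries there were 568810 distinct intervals.

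All 4 libraries came from HEK-293 Flp-In TREx cells, an established human embryonic kidney line, in which a FLAG-tagged ZFR transgene sat at the line's single recombination (FRT) site. The cells were polyclonal, and the transgene was switched on with doxycycline at 1 µg/mL for 48 to 72 h, in the inputs as well as in the eCLIP libraries. RNA and protein were joined with ultraviolet light at 400 mJ/cm2. There were 2 eCLIP libraries and 2 inputs. The labels do not tie the 2 libraries of a kind to separate cultures, so the spread between them may be technical. No library without the transgene was analysed here. The protein mapped is thus an induced, tagged copy.

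ZFR is a zinc finger protein with a DZF domain, the fold through which it pairs with other members of its family such as ILF2. It binds double-stranded RNA and takes part in the choice of alternative exons. In eCLIP the protein is pulled down with the RNA fragments crosslinked to it, and peaks are called where fragments pile up. The size-matched input takes RNA from the same size range of the gel without the pull-down, and so carries the background of abundant RNA.

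The lists differed greatly in length. They held 458932 and 39168 distinct intervals for the eCLIP libraries and 60227 and 10483 for the inputs, with 2944100, 216406, 238392 and 98185 reads in them. Sequencing depth is unknown, because reads outside peaks are not in the lists. The number of reads needed to be listed differed between genes, and is given below for some of the genes with most sites. Gene names are not in the files, and 0 of the 17764 identifiers matched the reference table used, so genes are given by position in the hg19 build, counted from 1. Whether a site lay in an exon or an intron, and its sequence, were not analysed here.

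Most strong sites shared by the eCLIP libraries were also met by an input. Of the 46849 intervals of eCLIP 1 with at least 10 reads, 1415 overlapped a peak of at least 10 reads of eCLIP 2. Of these, 777 (54.9%) overlapped an input peak, and the remaining 638 are the sites. The sites made up 1.36% of the strong intervals of eCLIP 1. The same rule turned round, input 1 peaks with a strong input 2 peak and no eCLIP peak, gave 110 of 825 strong intervals, or 13.3%. Those lists were much shorter and had to miss the long list of eCLIP 1, so the shares are set side by side only.

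The share met by an input rose with the reads. Among intervals of eCLIP 1 that met a strong eCLIP 2 peak, 29.3% of those with 10 to 19 reads, 42.7% with 20 to 49 and 63.7% with 50 or more overlapped an input peak. That left 159, 129 and 350 sites. Over all eCLIP 1 intervals of the same sizes, 5.01%, 15.9% and 50.5% overlapped an input peak, so the rise was seen in the whole list too.

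The sites held a median of 61 reads in eCLIP 1, with a range of 10 to 1049. In eCLIP 2 the overlapping peak held a median of 15 reads, with a range of 10 to 345. The middle of the first distribution lay between 20 and 140 reads (quartiles) and that of the second between 11 and 28. Across sites, the reads in the 2 libraries had a Spearman correlation of 0.63 (n = 638), a description of sites that share libraries, genes and often an eCLIP 2 peak. It was 0.39 over the 531 sites outside the mitochondrial chromosome and the gene with most sites. The ratio of eCLIP 1 to eCLIP 2 reads had a median of 3.40, while the reads in all intervals stood at 13.6 to 1. The minimum of 10 reads in the smaller library sets a low ratio by itself.

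Many sites sat on the threshold. In 106 of them the overlapping eCLIP 2 peak held exactly 10 reads, and the interval in eCLIP 1 had a median of 32.5 reads and 38 bases. Just outside, 121 intervals met an eCLIP 2 peak of 9 reads, with a median of 24 reads and 39 bases in eCLIP 1. On the other side, 30 sites had 10 reads in eCLIP 1 and 32 excluded intervals had 9.

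**Figure D1:**
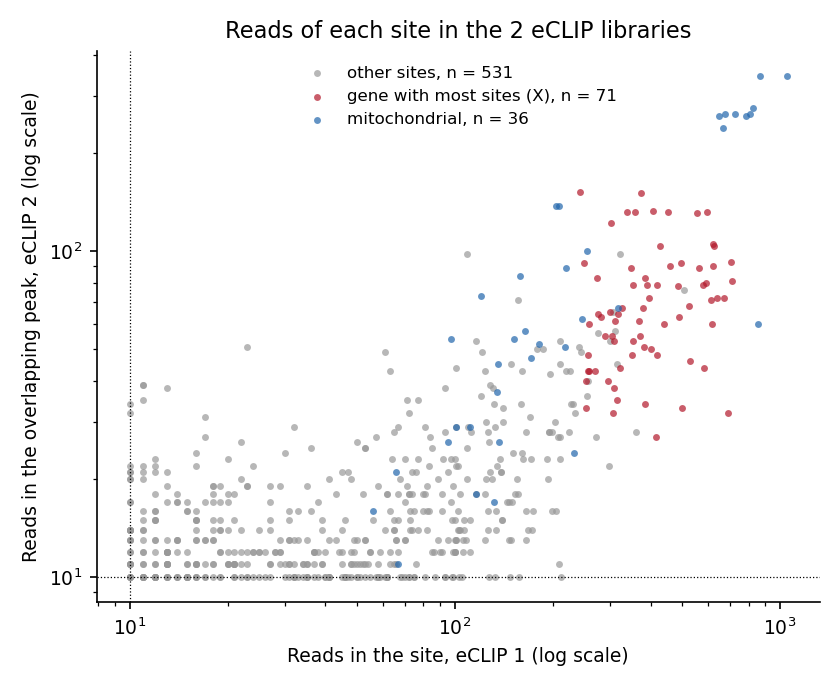
Each point is 1 site, by its reads in eCLIP library 1 (x axis, log scale) and the reads of the overlapping peak in eCLIP library 2 (y axis, log scale), with dotted lines at the minimum of 10. The 36 mitochondrial sites and the 71 sites of one gene on the X chromosome reach the highest reads, and the other 531 crowd the lower edge, with a median of 14 reads in eCLIP 2.

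The 2 libraries often placed a site at nearby positions. The authors' position inside the peak differed by a median of 6 bases between the libraries (quartiles 2 and 17, highest 100). It was within 10 bases at 424 sites (66.5%) and identical at 39. The overlap took up a median of 57.1% of the bases covered by either peak. The rule asked for a single base in common and did not use the position inside the peak. Overlap of peaks with median widths of 37 and 42 bases limits this distance by itself. The distance was not measured for other overlapping pairs.

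The sites lay in 275 genes, and a few genes took much of the list. Genes with a site made up 4.6% of the 5983 genes that held an eCLIP 1 interval of at least 10 reads. Of the 275, 180 held 1 site, 45 held 2, 27 held 3 or 4 and 23 held 5 or more. The 12 genes with 10 or more sites took 235 sites. A site listed under overlapping genes, of which there were 26, counted for each of its genes.

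By chromosome, X held 145 sites (22.7%), chromosome 19 held 105 (16.5%), and chromosomes 1 and M held 36 each. Of all strong intervals of eCLIP 1, 4.18% lay on X, 12.1% on chromosome 19 and 0.502% on M. Of the X sites, 71 came from 1 gene, and without that gene X held 13.1% of the sites against 3.51% of the strong intervals. The 105 sites of chromosome 19 lay in 35 genes and the 145 of X in 15. In all, 345 sites were on the minus strand and 293 on the plus strand.

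The gene with most sites, ENSG00000229807.5, held 71, or 11.1% of the list. They lay on the minus strand of X between 73040940 and 73071745, in 2 blocks. The upstream block held 34 sites in 9.84 kb and the downstream block 37 in 4.94 kb, and 16.0 kb without a site lay between them. The reads of its sites ran from 243 through a median of 381 to 709 in eCLIP 1, and from 27 through 65 to 152 in eCLIP 2. In eCLIP 1 the gene had 328 intervals with at least 10 reads. Of these, 222 met a strong eCLIP 2 peak, and 151 of the 222 also met an input peak.

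The inputs were rich in this RNA too. Of every 10000 reads in peaks, its peaks took 479 and 498 in eCLIP 1 and 2, and 186 and 344 in input 1 and 2. Both eCLIP values lay above both inputs, the lower eCLIP value 1.39 times the higher input value. The lowest peak listed for the gene held 185 and 27 reads in eCLIP 1 and 2, and 17 and 14 in input 1 and 2, against a minimum of 3 elsewhere in the lists. Input peaks with fewer reads were thus not listed for this gene, and a site there is a place without a listed input peak. The nearest input peak was within 100 bases at 58 of the 71 sites, at a median gap of 40 bases.

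Among the single sites ranked by the lower of their 2 read counts, outside the mitochondrial chromosome, 13 of the leading 15 lay in this gene. The first spanned 73062383 to 73062388, with 243 reads in eCLIP 1 and 152 in eCLIP 2. Input peaks of 61 and 49 reads lay 2 and 6 bases from it. The next spanned 73044931 to 73044949, with 373 and 151 reads, and input peaks of 36 and 32 reads lay 7 and 1 bases away. A run of 4 touching intervals from 73069892 to 73069954, with 337, 357, 596 and 452 reads, met 1 eCLIP 2 peak of 132 reads. Here 1 eCLIP 2 peak gave 4 sites.

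**Figure D2:**
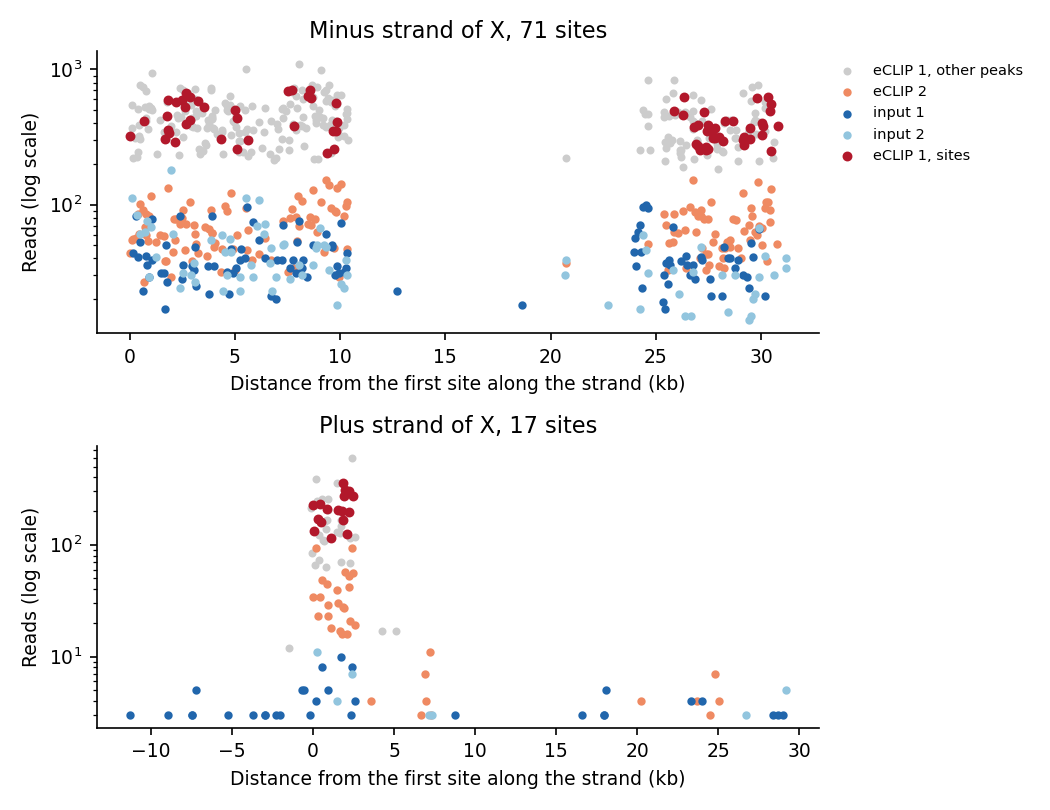
Reads (y axis, log scale) of every peak listed for 2 genes of the X chromosome, by distance in kb from the first site along the strand (x axis); dark red points are sites, grey points the other eCLIP 1 peaks, and orange, dark blue and light blue points the peaks of eCLIP 2, input 1 and input 2. In the upper gene the 71 sites form 2 blocks amid input peaks, and in the lower gene the 17 sites stand in 2.50 kb where input peaks hold few reads.

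Other genes with many sites often had their sites in a short stretch. In 8 of the 15 genes with most sites, the stretch from the first to the last site covered under 25% of the gene's peak span, which is the length from the first to the last peak of the gene over the 4 libraries. In the 23 genes with 5 or more sites, the stretch covered a median of 23.4% of the span. All strong intervals of eCLIP 1 covered a median of 95.3% there, and being more in number they reach further by themselves. In the plus-strand gene of X with 17 sites they covered 16.3%, and in that of chromosome 22 with 11 sites 22.9%. In 14 of the 15 genes both eCLIP libraries held a larger share of their reads in the stretch of sites than either input. Over the whole gene that was so in 11 of the 15. As background, it was so in 194 of the 275 genes with a site (70.5%) and in 1840 of all 5983 genes with a strong interval (30.8%). The rule favours this order, so it is no support for it. The 14 stretches include that of the mitochondrial gene with 9 sites, where neither input listed a peak. The lowest peaks listed for that gene held 93 and 559 reads in input 1 and 2, so its inputs were not shown to be low there.

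The gene with the next most sites, ENSG00000071626.11, lay on the plus strand of chromosome 19. Its 28 sites ran from 1422507 to 1428818, each within 1 kb of the next, in 6.31 kb of a peak span of 27.4 kb. The reads of the sites ran from 61 through 113 to 315 in eCLIP 1 and from 10 through 22.5 to 53 in eCLIP 2. The peaks of the stretch held 8681 reads in eCLIP 1 and 610 in eCLIP 2, against 19 in input 1 and 8 in input 2. As shares this was 29.5 and 28.2 per 10000 against 0.797 and 0.815, so the lower eCLIP value was 34.6 times the higher input value. The stretch is bounded by the sites, so the rule favours a high ratio there. Over the whole gene the shares were 35.0 and 34.6 against 1.85 and 6.01, or 5.75 times by the same measure. The stretch took 84.3% and 81.6% of the gene's eCLIP reads but 43.2% and 13.6% of its input reads. Here the inputs listed peaks down to 3 reads, so the input lists were not limited as in the gene on X. The lowest peak listed for the gene held 27 reads in eCLIP 1 and 4 in eCLIP 2.

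On the minus strand of chromosome 10, 19 sites lay between 103553765 and 103557496, in 3.73 kb of a span of 32.9 kb. The eCLIP libraries held 8.95 and 13.5 reads per 10000 in that stretch, input 1 held 0.378 and input 2 listed no peak. For the whole gene the shares were 10.9 and 17.7 against 2.01 and 2.55. The sites fell into a group of 11 within 1609 bases and a group of 8 within 534 bases. The smaller group held 677 and 97 eCLIP reads in peaks, and neither input listed a peak in it.

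A plus-strand gene of X had its 17 sites between 70765125 and 70767622, 2.50 kb of a span of 40.6 kb. The reads of these sites ran from 116 through 203 to 360 in eCLIP 1 and from 16 through 34 to 57 in eCLIP 2. The stretch took 26.5 and 38.9 reads per 10000 in the eCLIP libraries against 1.59 and 2.24 in the inputs. The whole gene took 28.0 and 42.3 against 5.20 and 3.67. The stretch held 94.4% and 92.0% of the eCLIP reads in the gene's peaks. Of the gene's input reads 30.6% and 61.1% lay there, which in number were 38 and 22 reads.

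Chromosome 22 had 2 such genes. On the plus strand 11 sites lay between 29684818 and 29686723, in 1.91 kb of a span of 26.2 kb, with 10.7 and 10.9 reads per 10000 in the eCLIP libraries, 0.461 in input 1 and no peak in input 2. On the minus strand 15 sites lay between 38881292 and 38887855, with 12.5 and 17.0 per 10000 against 1.55 and 3.77 in the inputs. The first gene kept its sites in 7.27% of the span and the second in 28.5%.

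A second gene on the plus strand of chromosome 19 held 10 sites between 49606144 and 49607840, in 7.76% of its span. Per 10000 reads in peaks, eCLIP 1 held 13.0 there, eCLIP 2 held 16.3, input 1 held 0.461 and input 2 held 3.16. Taken over the whole gene these values were 15.3, 21.6, 1.68 and 7.64. The gene gave both of the strongest single sites outside X and M. They spanned 49607795 to 49607840, with 321 reads in eCLIP 1, and 49607688 to 49607724, with 109, and met 1 eCLIP 2 peak of 98 reads. Input 2 peaks of 4 and 7 reads lay 1 and 10 bases from them.

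Similar short stretches were seen on chromosomes 5 and X. On the minus strand of chromosome 5, 10 sites lay between 179045894 and 179047656, in 9.08% of the span, with 7.97 and 12.0 reads per 10000 in the eCLIP libraries against 0.210 and 1.12. On the plus strand of X, 9 sites lay between 17755850 and 17758840, at the 5′ end of the peak span, with 9.84 and 10.4 per 10000 against 0.671 and 1.02. In both stretches all eCLIP values stood above all input values.

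A pair of minus-strand genes on X, whose peak spans overlap by 2775 bases, held 12 sites between 107963755 and 107967973 and 15 between 107965790 and 107975043. The first had 16.8 and 19.0 reads per 10000 in the eCLIP libraries against 4.03 and 4.58, and the second 23.7 and 25.2 against 6.38 and 13.9. Of their sites, 6 of the 12 and 5 of the 15 share bases with a site listed for the other gene, so the counts and shares of the pair hold part of the same signal. Of all 638 sites, 23 share bases with another site. A minus-strand gene of chromosome 19 had 15 sites spread over 15.7 kb from 39448714 to 39464454. Its stretch had 7.96 and 22.5 per 10000 against 1.13 and 6.93, so that eCLIP 1 and input 2 were near each other. The whole gene had 11.2 and 33.3 against 2.39 and 13.1, with input 2 above eCLIP 1. On the plus strand of chromosome 11, 12 sites between 65269537 and 65273451 had 26.6 and 21.7 against 11.2 and 19.4. The whole of that gene had 33.3 and 26.2 against 17.5 and 31.5, with input 2 above eCLIP 2. The lowest peak listed for that gene held 46 and 9 reads in eCLIP 1 and 2, and 8 and 5 in input 1 and 2. The 7 sites between 65190460 and 65212576 had 26.0 and 18.8 against 9.98 and 21.8, and there eCLIP 2 lay below input 2.

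**Figure D3:**
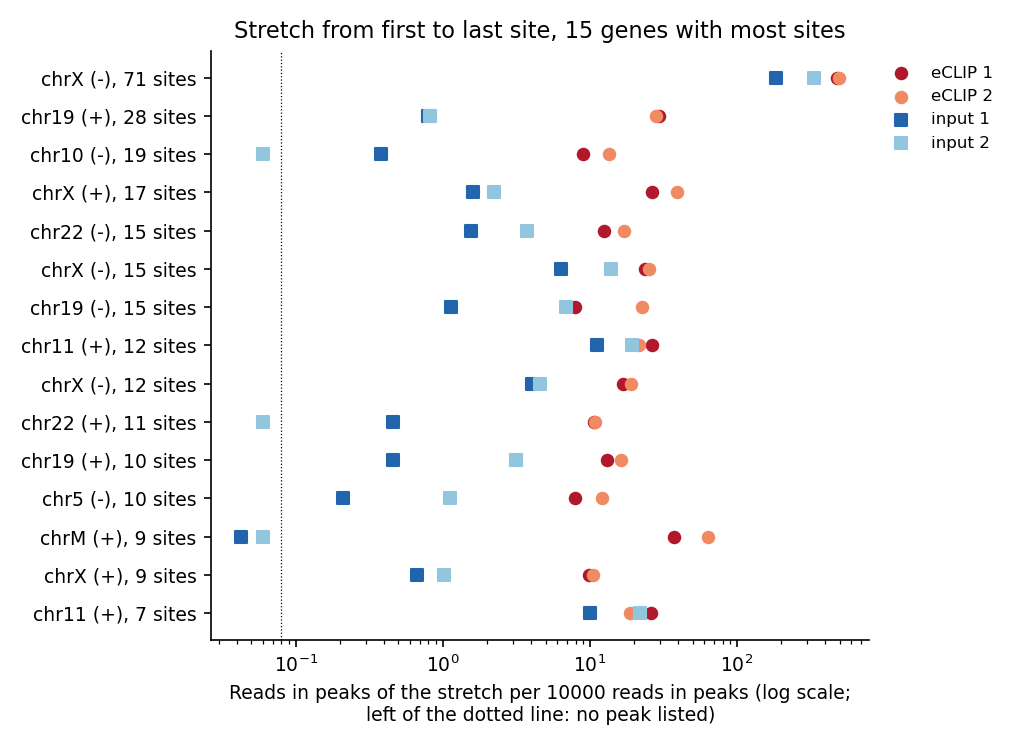
For the 15 genes with most sites (rows, by chromosome, strand and number of sites), the reads in peaks between the first and the last site per 10000 reads in peaks of the library (x axis, log scale), with circles for the eCLIP libraries and squares for the inputs. Points left of the dotted line mark an input with no peak listed in the stretch. In the mitochondrial gene the lowest listed peaks held 93 and 559 reads in input 1 and 2, so such points do not show a low input there. The eCLIP circles lie to the right of both input squares in 14 of the 15 rows, the exception being the gene on chromosome 11 with 7 sites.

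The mitochondrial chromosome held 36 sites, 33 of them on the plus strand. The strongest 9 lay in 1 gene, between 2523 and 2865, with 648 to 1049 reads in eCLIP 1 and 239 to 345 in eCLIP 2. They were 2 to 20 bases wide, and 8 of them touched another. The widest, from 2827 to 2846, had 1049 and 345 reads, and the nearest input peaks held 135 and 651 reads, 147 and 304 bases away. The interval from 2523 to 2526 had 725 and 264 reads, and an input 2 peak of 651 reads touched it.

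Over the whole of that gene input 1 lay below both eCLIP libraries and input 2 above both. The gene's peaks took 207 and 616 reads per 10000 in eCLIP 1 and 2. They took 114 and 2844 in input 1 and 2, so input 2 stood highest. The lowest peak listed for it held 597 and 219 reads in eCLIP 1 and 2, and 93 and 559 in input 1 and 2. Input 2 peaks with fewer reads were not listed there. Of the 177 strong shared intervals on the mitochondrial chromosome, 141 (79.7%) met an input peak, against 68.0% in the gene with most sites and 47.7% elsewhere.

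Many sites stood close together. The gap to the nearest other site was at most 1 kb at 405 of them (63.5%, Wilson 95% interval 59.7 to 67.1, counting error only), and 161 touched or overlapped another. With touching sites joined, the 638 formed 551 regions over 24507 bases, and they met 566 different peaks of eCLIP 2. For all strong intervals of eCLIP 1 the share within 1 kb of another was 75.0%, for the strong shared intervals met by an input 77.9%, and for intervals shared by the eCLIP libraries with fewer reads and no input peak 39.4%. These sets differ in number, and a longer list puts its members closer. Intervals that touched or overlapped another of their set made up 25.2% of the sites, 7.33% of the strong list and 52.3% of the strong shared intervals met by an input.

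Linked at gaps of up to 1 kb, the sites formed 315 groups, of which 233 were single sites and 20 held 5 or more. Those 20 groups took 262 sites (41.1%) and were 438 to 6312 bases long, with a median of 2294. The groups of 37, 20 and 12 sites were parts of the gene with most sites, and the stretch of 28 on chromosome 19 was second in size. A group of 18 sites on the minus strand of X, from 107963755 to 107967981, spanned parts of both overlapping genes there and holds the sites that share bases, and the 17 sites on the plus strand of X made up the fifth. The shortest of the 20 lay on the plus strand of X from 23802557 to 23802994, with 5 sites of 13 to 76 bases. Its eCLIP libraries held 8.38 and 13.1 reads per 10000, input 1 listed no peak there and input 2 held 0.815. In 18 of the 20 groups both eCLIP shares were above both input shares, and the other 2 lay on the mitochondrial chromosome. The groups are made of sites, so the rule favours this order and the count is no support for it.

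The weaker shared intervals were also placed against the sites. There were 10742 intervals found in both eCLIP libraries and neither input with under 10 reads in at least 1 of them. Of these, 366 (3.41%) lay within 1 kb of a site. The sites formed only 315 groups, so the sizes of the 2 sets keep this share low by themselves. In the gene with most sites the lowest listed peaks held 185 and 27 reads in eCLIP 1 and 2. In the mitochondrial gene with 9 sites they held 597 and 219. No weaker interval could be listed for these genes, and the share near other strong intervals was not measured. The weaker intervals were spread over 3845 genes, 217 of which also held a site. The 217 make up most of the 275 genes with a site but a small part of the genes with weaker intervals. The same share was not measured over all genes with a strong interval of eCLIP 1, so no difference from them is read.

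The sites had a median width of 37 bases (95% interval 36 to 38), with quartiles of 27 and 48. All strong intervals of eCLIP 1 had a median of 41, the strong shared intervals met by an input 31, the weaker shared ones 33, and the strong sites of the inputs 25. The peaks of eCLIP 2 at the sites were wider, with a median of 42. Width is set by the peak caller and moves with the reads and with how a broad signal is cut.

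The narrow sites came mostly from the gene with most sites and the mitochondrial chromosome. In the gene with most sites the median was 19 bases and on the mitochondrial chromosome 20.5, against 39 in the other 531. Of the 26 sites of 10 bases or less, 10 lay in that gene, 10 on the mitochondrial chromosome and 6 elsewhere. By reads, the median width was 35 bases for sites with 10 to 19 reads in eCLIP 1, 39 with 20 to 49, 38 with 50 or more but under 200, and 27.5 with 200 or more. Of the 118 sites with 200 or more reads 59 touched another, against 5 of the 159 with 10 to 19.

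The 5 widest sites lay apart from each other. The first, 133 bases on the minus strand of chromosome 19 from 39333785 to 39333917, had 212 reads in eCLIP 1 and 10 in eCLIP 2, and the gene held 6 sites. Both of the next were 120 bases wide, on chromosome 19 (plus strand) from 37818734 to 37818853 with 48 and 11 reads, and on X (plus strand) from 117563916 to 117564035 with 10 and 10. The others lay on chromosome 6 (plus strand) from 10752993 to 10753102, listed under 2 genes, with 36 and 16 reads, and on the minus strand of chromosome 9 from 139939116 to 139939224, with 157 and 10. In 4 of these 5 the eCLIP 2 peak was near its own minimum, at 10 or 11 reads.

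**Figure D4:**
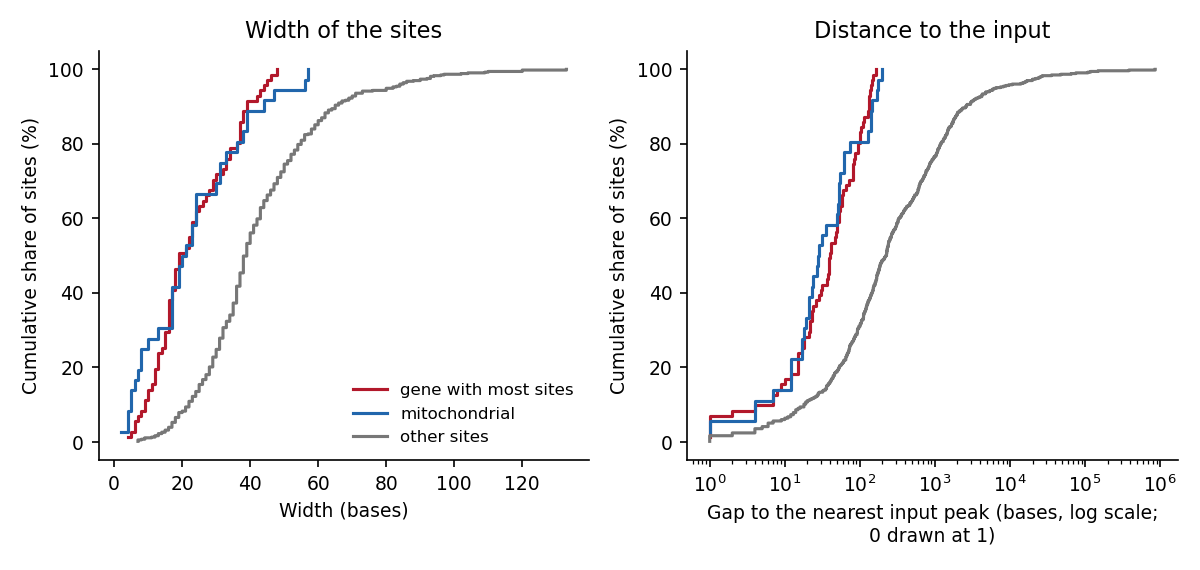
Cumulative share of sites (y axes, %) by width in bases (left) and by the gap in bases to the nearest input peak on the strand (right, log scale, gaps of 0 drawn at 1), for the gene with most sites, the mitochondrial chromosome and the other 531 sites. The first 2 curves lie to the left in both panels, with median widths of 19 and 20.5 against 39 bases and median gaps of 40 and 28.5 against 223.

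Being free of an input peak did not mean being far from one. The nearest input peak on the strand lay at a median gap of 150 bases, within 100 bases at 252 sites (39.5%) and within 1 kb at 514 (80.6%). It touched 10 sites. The input peaks within 100 bases held a median of 7 reads. Only 22 sites had no input peak within 10 kb. At 55 sites every strong eCLIP 2 peak that met the site itself overlapped an input peak, so those would not pass if the rule were read from eCLIP 2. In 16 of the 275 genes the inputs listed no peak at all, and these genes held 15 sites, at most 2 each. The same distances and gene count were not measured for the other intervals of eCLIP 1, so no difference from them is read.

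Sites alone in their gene had fewer reads than those in genes with many. The 157 sites that were the only one of their genes, outside the mitochondrial chromosome, had a median of 16 reads in eCLIP 1 and 12 in eCLIP 2. The 225 sites in genes with 5 or more, leaving out the gene with most sites and the mitochondrial chromosome, had 99 and 18. The single sites had a median width of 40 bases against 37, and an input peak lay within 100 bases of 20.4% of them against 43.1%. Their reads in the 2 libraries had a Spearman correlation of -0.05 (n = 157), against 0.52 (n = 225). The minimum of 10 reads lies close to the medians of the single sites and limits their correlation by itself, so no difference is read. Of the single sites 6.37% touched another site, against 36.4% of the 225. Reads and the number of sites in a gene are thus not independent of how signal was cut into intervals.

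Along their genes the sites were spread over the whole span. The place was measured 5′ to 3′ within the gene's peak span, in genes with at least 10 intervals, which gave 644 pairs of a site and a gene. The span was cut into 10 equal parts (deciles). Decile 1 held 15.1% of the sites and decile 10 held 10.6% (8.41 to 13.2). All strong intervals of eCLIP 1 had 17.2% and 12.0% there, and the weaker shared intervals 16.6% and 9.98%. In deciles 7, 8 and 9 the sites had 10.7%, 14.1% and 11.8%, and the strong intervals 7.34%, 7.17% and 7.74%. Strong shared intervals that met an input peak had 7.00%, 8.86% and 11.9%, so in decile 9 they were level with the sites.

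Several genes with many sites stood in those deciles, and others stood outside them. The median place in the gene, from 0 at the 5′ end to 1 at the 3′ end, was 0.68 for the 28 sites of chromosome 19, 0.70 for the 19 of chromosome 10, 0.75 for the 15 of chromosome 22 and 0.66 for the 11. It was 0.80 for the 10 sites on the plus strand of chromosome 19 and 0.74 for the 10 of chromosome 5. The gene with most sites stood at 0.84, and those of chromosome 11 with 12 and 7 sites at 0.76 and 0.81. The 17 sites on the plus strand of X stood at 0.32 and the 9 there at 0.08. Also outside were the 15 sites on the minus strand of chromosome 19, at 0.28, and the 9 of the mitochondrial gene, at 0.58. The overlapping genes of X with 15 and 12 sites stood at 0.59 and 0.47. With each of the 254 genes counted once, at the median place of its sites, deciles 7 to 9 held 7.09%, 10.2% and 12.6%. Without the gene with most sites they held 12.0%, 15.9% and 9.77% of the sites.

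**Figure D5:**
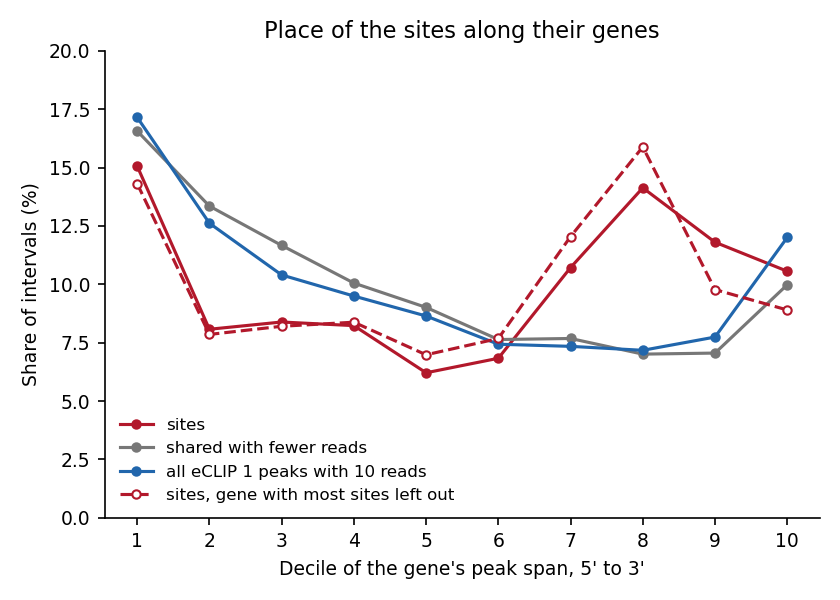
Share of intervals (y axis, %) in each decile of the gene's peak span from 5′ to 3′ (x axis) for the sites, for intervals shared with fewer reads and for all eCLIP 1 intervals with at least 10 reads; the dashed line leaves out the gene with most sites. The sites rise to 14.1% in decile 8, where all eCLIP 1 intervals with at least 10 reads hold 7.17%.

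Sites with a peak of either eCLIP library on the opposite strand numbered 4. Opposite-strand peaks were not counted for any other set of intervals, so no difference from them is read. No result here was tested across libraries, because the rule used the contrast of eCLIP with input and each kind had 2 libraries.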

How the data were processed

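Peaks of FLAG-ZFR eCLIP and size-matched input were taken from 4 lists, 1 per library, as deposited. Per the submitters' processing notes, cutadapt, STAR, SAMtools and the hg19 build were used; the sources used here do not name the peak caller, its settings or the annotation. Each deposited line has an interval, a score, a p-value between 0 and 0.05 (the score follows from it) and a position inside the peak. The last number of the deposited peak name was taken for the peak's reads, although no header says so.

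Repeats of an interval under several genes were counted once. Overlap needed 1 base on the same strand, and the search was checked on simulated intervals. Shares per 10000 are of all reads in distinct intervals of a library. Medians carry order-statistic and shares Wilson 95% intervals, for counting error only. The software was Python 3.11.15 with pandas 2.3.3 and scipy 1.17.1.

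The text names the 15 genes with most sites, the leading sites by the lower read count (15, and 5 mitochondrial), the 5 widest sites and the largest groups. Members and rules were chosen with earlier results of these data known. Gene lists were not used, since no identifier had a name. The shortest group of sites was named after its values were seen. Read minimum, overlap, p-value limit, distance to input, merging, chromosome M and left-out libraries were varied.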

Additional observations from a re-analysis of the deposited data

How the results depend on the processing

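No paired analysis was possible because the results come from no test. The number of sites, 638, rose to 3395 with 5 reads required in both libraries and fell to 217 with 20, and to 386 with no input peak within 100 bases. Genes with a site went from 275 to 1465 and 49 at those read minimums. The median width of 37 bases became 35 and 32 at those minimums, 40 counted on eCLIP 2 and 39 with touching peaks merged. The share of sites within 1 kb of another, 63.5%, became 46.3% and 90.3% at 5 and 20 reads, 54.6% on eCLIP 2, 47.7% with no input peak within 100 bases, 50.4% with touching peaks merged and 58.9% without the gene with most sites (an alternative added after the data were seen). It was 40.6% within 100 bases and 73.5% within 10 kb. The share in the last decile of the span, 10.6%, became 14.6% with the span taken from eCLIP 1 alone. Leaving out 1 library at a time gave 855 to 42740 sites, 326 to 5529 genes, median widths of 36 to 50, 34.7% to 73.0% within 1 kb and 7.49% to 11.6% in the last decile; the high counts are eCLIP 1 without eCLIP 2. The other alternatives left the count within 1.5 times and the shares and medians within their intervals. Sites rest on lists whose minimum of listed reads differs by gene, and the depth of the libraries is unknown.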
